A study of Mus musculus with 45 samples.

Results

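Unlabelled, pre-existing RNA of NIH-3T3 cells was compared with total cellular RNA after 60 min of labelling with 200 µM 4-thiouridine (4sU). The 6 arrays were chosen by their titles, 3 of pre-existing and 3 of total RNA from one experiment, out of 45 in the series. NIH-3T3 is an established line of mouse embryonic fibroblasts. The labels give passages 5 to 15, a density of 40% at plating 24 h earlier, DMEM with 5% NCS, Trizol extraction and the one-cycle labelling of Affymetrix. Cells stood at 80% density when the pulse began. The titles of these arrays carry the word mock, which the labels leave unexplained. Further arrays served beside this comparison, each in groups of 3. They held newly transcribed RNA of the same experiment, total and newly transcribed RNA of another 60 min experiment at the same dose whose titles begin with 2F (also unexplained), and total RNA before and after 1 h and 2 h of actinomycin D at 5 µg/ml. Nothing states that the replicates were separate cultures, so p-values measure only how far these arrays differ, possibly for technical reasons.

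4sU is a uridine analogue that cells take up and build into RNA as it is transcribed. Its thiol group lets the labelled transcripts be tagged and pulled out, which leaves behind the RNA that was made before the label was added. A long-lived transcript is still almost entirely unlabelled at the end of a short pulse, whereas a transcript that is made and degraded quickly has been replaced by labelled copies and is scarce in the unlabelled RNA relative to total RNA. Transcripts of immediate-early factors, cytokines and feedback inhibitors are known for fast turnover, and those of metabolic enzymes and structural proteins for slow turnover. Actinomycin D blocks transcription and reads decay without any label.

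Values are GCRMA intensities on the linear scale, and changes are log2 of pre-existing over total RNA ± standard error. A probe set was tested where its log2 averaged at least 5 over the 6 arrays, which is an intensity of 32, and called at a limma adjusted p below 0.05 and a fold of 2 or more. All 11 fibroblast markers reached that mean, and none of the 5 epithelial, 5 leukocyte or 5 endothelial and muscle markers on the array did, where the highest mean intensities were 12.0 for Krt5, 10.1 for Cd68 and 7.42 for Acta1. The summed intensity of the fibroblast markers was 94078 to 97092 in pre-existing RNA and 74207 to 98004 in total RNA. Total RNA replicate 2 stood apart, with correlations of 0.775 to 0.812 with the pre-existing arrays, against 0.925 to 0.938 for replicate 1 and 0.897 to 0.905 for replicate 3. The excess of 3′ over 5′ signal on the actin control probes, a measure of RNA integrity, was 3.08 (log2) on total RNA replicate 2, 0.77 and 1.29 on replicates 1 and 3, 0.68, 1.54 and 0.72 on the pre-existing arrays, and 0.68 to 0.75 on the 2F total RNA arrays. Its part in the results was not tested, and results are given with and without that array and against 2F total RNA.

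Of 15051 probe sets tested, 701 were lower than in total RNA (4.66%) and 417 were higher (2.77%). The 3 pre-existing values did not overlap the 3 total RNA values for 44.7% of the probe sets, and 34.7% had an unadjusted p below 0.05. With 1 probe set per gene, that of the highest mean over all arrays, 270 of 8370 genes were lower (3.23%) and 246 were higher (2.94%). The median change of all probe sets was 0.17, and it became 0.06 after quantile normalization and 0.04 after median centring, so each change is best read against it. Increases made up 37.3% of the calls, and 28.6% and 28.3% after those scalings. In bulk RNA a transcript that is low in every cell and one that is missing from some of the cells cannot be told apart.

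The decreases held better than the increases against 2F total RNA, but not without total RNA replicate 2 (71.9% and 76% kept). Without total RNA replicate 2, 550 probe sets were lower (3.65%) and 508 higher (3.37%), which kept 504 of the 701 and 317 of the 417, while 115 of the 701 no longer passed the filter on mean intensity. With the replicate number as a block, 849 probe sets were lower (5.64%) and 1000 higher (6.64%), which kept 700 of the 701 and 412 of the 417. Against the 2F total RNA, which uses the same pre-existing arrays, 568 probe sets were lower (3.70%) and 9 were higher (0.0586%), and this kept 391 of the 701 decreases and 2 of the 417 increases. By gene, 125 of the 270 lower genes were lower against both total RNA groups, and 138 were tested and not called against 2F total RNA. The median of the 701 probe sets was -1.72 in the main comparison and -1.25 against 2F total RNA. That of the 417 was 1.35 and 0.44. Between the total RNA groups themselves 0.552% of probe sets were lower in this experiment than in the 2F one and 0.109% were higher. Leaving out total RNA replicate 3 left 281 decreases and 53 increases, and leaving out total RNA replicate 1 gave 1118 and 2287. Increases numbered 39, 81 and 56 without pre-existing replicate 1, 2 and 3 in turn.

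Taf1d, Skil and Tnfaip3 were far lower in pre-existing than in total RNA. Taf1d encodes a subunit of the selectivity factor that recruits RNA polymerase I to ribosomal DNA, and its gene also hosts small nucleolar RNAs. Its intensity was 72.6, 99.8 and 91.1 on the pre-existing arrays and 694, 1162 and 905 on the total RNA arrays. All pre-existing values lay far below all total RNA values. The 2F total RNA arrays, at 598, 609 and 631, lay between the groups and nearer to total RNA. Pre-existing RNA held 9.67% of the total RNA level, a change of -3.37 ± 0.25 (limma adjusted p = 5.2e-04), which was -3.19 without total RNA replicate 2 and -2.81 against 2F total RNA. Skil, a corepressor that restrains SMAD signalling, read 119, 147 and 141 against 517, 1157 and 670. Its groups did not overlap, and total RNA replicate 2 was the highest of the 6 arrays. The change was -2.45 ± 0.31 (limma adjusted p = 0.0055), or -2.12 without total RNA replicate 2. For Skil the 2F total RNA arrays read 427, 415 and 420, between the groups, and the change against them was -1.64 ± 0.10. Tnfaip3, a ubiquitin-editing inhibitor of NF-kappaB, read 21.0, 28.8 and 21.6 against 129, 113 and 145. Every pre-existing value was below 32 and the size is uncertain for that reason. The change was -2.44 ± 0.21 (limma adjusted p = 9.7e-04) and -1.75 ± 0.19 against 2F total RNA. In newly transcribed RNA of the same experiment, which shares the total RNA arrays and in which 17.5% of probe sets were higher than in total RNA, the 3 genes were at 1.73, 1.67 and 3.03.

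The promoters of Tnfaip3 and Taf1d are shown because these genes were among the lower ones and share no listed motif. They are the 250 bases before the start of the gene in RefSeq, build GRCm38.p6, read along the gene, at chr10:19015411-19015660 on the minus strand and chr9:15305964-15306213 on the plus strand. Capitals mark matches to the TATA motif (TATAAA), the AP-1 motif (TGANTCA) and the E-box (CACGTG).
Tnfaip3: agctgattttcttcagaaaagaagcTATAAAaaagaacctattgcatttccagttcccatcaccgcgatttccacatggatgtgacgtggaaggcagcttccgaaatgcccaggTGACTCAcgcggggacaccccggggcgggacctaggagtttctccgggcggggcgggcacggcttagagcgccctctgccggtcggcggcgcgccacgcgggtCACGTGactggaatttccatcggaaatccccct
Taf1d: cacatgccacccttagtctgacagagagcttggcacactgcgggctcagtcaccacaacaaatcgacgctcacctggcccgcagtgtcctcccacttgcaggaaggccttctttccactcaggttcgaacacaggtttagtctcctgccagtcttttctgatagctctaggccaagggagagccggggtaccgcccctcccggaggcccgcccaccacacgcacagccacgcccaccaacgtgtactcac
The Tnfaip3 matches begin 225, 136 and 33 bases before the start, and the Taf1d window holds no match to any of the 6 motifs searched on both strands, which were these 3, the cAMP response element (TGACGTCA), the CCAAT box and a motif of NF-kappaB. None of the 6 motifs contains another. The motif of NF-kappaB was searched in a single form, and other forms of it were not searched. Its shares below therefore cover that form only, and either window may hold another form in lower case. Of the 270 lower genes 215 had a promoter in the table. The TATA motif was in 7.91% of these, 5.98% of the promoters of all genes tested and 13% of all promoters in the table. The AP-1 motif was in 4.65%, 3.79% and 6.87%, the cAMP response element in 3.72%, 3.05% and 1.62%, the E-box in 9.3%, 9% and 6.05%, the CCAAT box in 40%, 37.3% and 34.5%, and the motif of NF-kappaB in 0.93%, 0.289% and 0.337%. Among the 202 matched promoters of higher genes the shares were 5.94% for the TATA motif, 4.46% for the AP-1 motif, 2.97% for the cAMP response element, 10.9% for the E-box, 46% for the CCAAT box and 0% for the motif of NF-kappaB. The lower genes were thus within a few percentage points of all genes tested for every motif, with no test made.

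Among sequence-specific transcription factors, several immediate-early genes were depleted. Klf10, a zinc-finger factor induced by TGF-beta, read 334, 288 and 333 in pre-existing RNA and 1505, 2209 and 1350 in total RNA. The 2F total RNA arrays read 1185, 1112 and 1115, so all 6 total RNA values were above the pre-existing ones, and the change was -2.38 ± 0.23 (limma adjusted p = 0.0017). Fosl2, an AP-1 subunit, read 495, 547 and 670 against 2028, 2705 and 2235, with 1928 to 2192 in 2F total RNA. The groups were well apart, and its change of -2.03 ± 0.21 was nearly the same against 2F total RNA (-1.87 ± 0.12). Fos, the founding AP-1 subunit, read 205, 180 and 337 against 680, 640 and 723. Pre-existing replicate 3 was the highest of its group and still below every total RNA array, and the change was -1.55 ± 0.27 (limma adjusted p = 0.018) and -1.45 ± 0.25 against 2F total RNA. The call of Fos was lost without pre-existing replicate 1 or 2 or without total RNA replicate 3. It was also lost when replicate 1, 2 or 3 was left out of both groups. Egr1, a zinc-finger factor, was at -1.61 ± 0.22. Klf7, a further member of the Krüppel-like family that is not in the immediate-early list, was at -2.35 ± 0.26. Of 39 immediate-early genes tested, 10 were lower, 0 were higher and 29 did not pass, where 3.23% of all genes were lower. Their median was -0.43 against 0.18 for all genes tested.

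Against 2F total RNA 17 of the 39 immediate-early genes were lower, where 2.27% of all genes were, and the median was -0.91. Of the 17, 7 were lower against both total RNA groups and 10 against 2F total RNA alone, while 3 were lower against total RNA of the same experiment and not called against 2F total RNA. The rest were called against neither. Myc, a growth-promoting transcription factor, read 446, 357 and 502 in pre-existing RNA and 563, 254 and 540 in total RNA of the same experiment. These groups overlapped, and the change was 0.02 ± 0.34 (limma adjusted p = 0.98). The 2F total RNA arrays read 1258, 1275 and 1320 for Myc, all above every other array, and against them the change was -1.58 ± 0.13 (limma adjusted p = 5.9e-04). The difference between the 2 total RNA groups was itself -1.59 for Myc and did not pass (limma adjusted p = 0.083). The actin gene Actb, a reference point, read 13698.5, 10759 and 13465 against 15029.9, 11044 and 11569.9. Its groups overlapped, and it was at 0.02 ± 0.21.

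**Figure D1:**
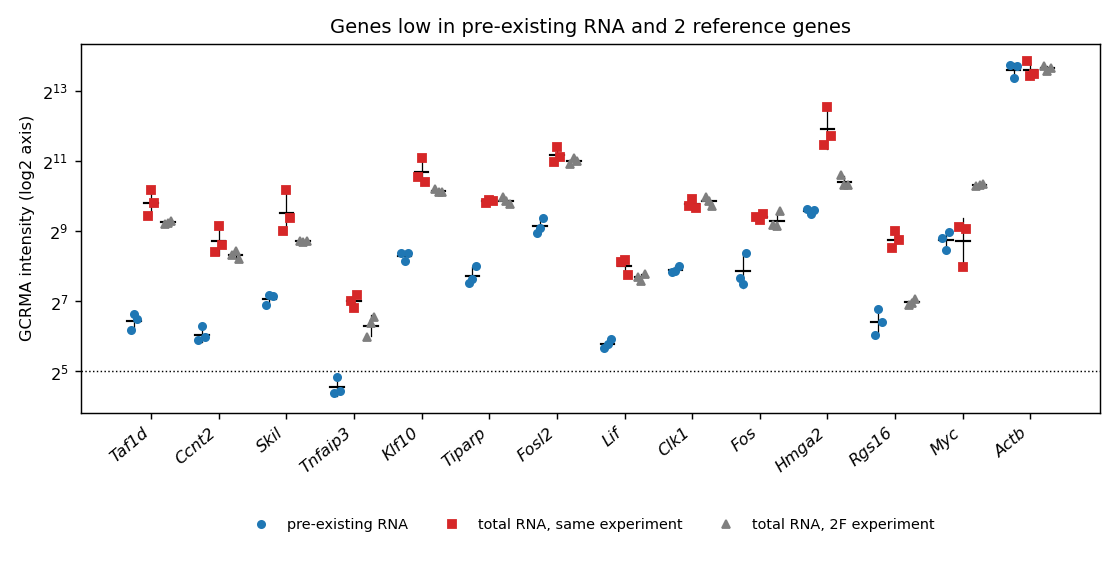
GCRMA intensity (log2 axis) of 12 genes that were lower in pre-existing RNA, with Myc and Actb, on each array; circles are pre-existing RNA, squares total RNA of the same experiment and triangles 2F total RNA (3 arrays each), bars are the mean and SD of the log2 values, and the dotted line is an intensity of 32. Circles lie below squares for the 12 genes from Taf1d to Rgs16. The triangles of Taf1d, Skil, Tnfaip3, Klf10, Hmga2 and Rgs16 lie wholly between them. For Myc the circles and squares overlap and the triangles stand above all of them.

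Inhibitors that act back on signalling pathways were the list with the largest share of decreases. Of 26 feedback regulators tested, 13 were lower, 0 were higher and 13 did not pass, with a median of -1.06. Among all genes 3.23% were lower. Against 2F total RNA 10 of the list were lower, where 2.27% of all genes were. Beside Skil and Tnfaip3 they included Rgs16, which shuts off heterotrimeric G proteins (-2.35 ± 0.25), and Errfi1, an inhibitor of the EGF receptor kinase (-1.79 ± 0.20). Errfi1 read 2128, 1823 and 2234 against 6285, 8576 and 6613, with no overlap, and was at -1.39 ± 0.10 against 2F total RNA. Rgs16 read 65.5, 111 and 85.8 against 372, 515 and 431, but 119, 123 and 136 in 2F total RNA, near the pre-existing values. Its change against 2F total RNA was -0.56 ± 0.19 and did not pass (limma adjusted p = 0.065), and the difference of 1.79 between the total RNA groups passed (limma adjusted p = 0.027). Named after their values were seen, the other called members were Spry2 (-1.67), Smad7 (-1.48), Nfkbiz (-1.42), Rgs2 (-1.35), Spry4 (-1.15), Dusp6 (-1.14), Socs5 (-1.12), Nfkbia (-1.07) and Dusp1 (-1.05), which restrain growth factor, TGF-beta, NF-kappaB, G protein, cytokine or MAP kinase signalling.

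Some secreted ligands and a receptor were lower. Lif, a cytokine of the interleukin-6 family, read 51.3, 54.8 and 61.2 in pre-existing RNA and 278, 289 and 215 in total RNA. The groups were far apart and the change was -2.22 ± 0.20 (limma adjusted p = 0.0011), and -1.90 ± 0.10 against 2F total RNA. Ereg, an EGF receptor ligand, was at -1.94 ± 0.18, Inhba, the activin beta-A chain, at -1.48 ± 0.33 and Cxcl1, a neutrophil-attracting chemokine, at -1.47 ± 0.21. Cxcl1 was at -0.58 against 2F total RNA, where it did not reach the fold of 2. In all, 4 of 20 cytokines and growth factors were lower and 0 higher, with a median of -0.64, where 3.23% of all genes were lower. In the list 7 were lower against 2F total RNA, where 2.27% of all genes were. Ptger4, a prostaglandin E2 receptor, read 476, 502 and 546 against 1882, 2947 and 2218, and was at -2.19 ± 0.22 (limma adjusted p = 0.0018) with no overlap. Tiparp, an ADP-ribosyltransferase induced by the aryl hydrocarbon receptor, read 183, 201 and 256 against 905, 946 and 940. It gave nearly the same change against either total RNA, -2.14 ± 0.19 and -2.15 ± 0.14.

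In the list of splicing kinases, cyclins and P-TEFb subunits 4 of 17 genes were lower, where 3.23% of all genes were. Ccnt2, a cyclin of the elongation kinase P-TEFb, read 59.1, 78.1 and 63.2 against 341, 569 and 388. No value overlapped, and it was at -2.67 ± 0.25 (limma adjusted p = 0.0013) and -2.27 ± 0.12 against 2F total RNA. Clk1, a kinase of SR splicing factors, read 230, 232 and 258 against 845, 967 and 820, a change of -1.87 ± 0.17. Ccnl1, a cyclin of splicing-associated kinases, was at -1.84 ± 0.20 and Srpk1, another SR protein kinase, at -1.08 ± 0.24. Srpk1 was at -0.38 against 2F total RNA and, at -0.88, short of the fold of 2 without total RNA replicate 2. In this list 0 genes were higher, 13 did not pass and the median was -0.51.

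The core splicing and transcription factors stayed near the other genes. Of 50 splicing factors 1 was lower, Hnrnpa1 at -1.10 ± 0.26, and the median was 0.07. Mediator had 1 lower of 29, Med1 at -1.03 ± 0.25. Med1 was at -0.80 and short of the fold of 2 without total RNA replicate 2, and at -0.31 and not called against 2F total RNA. Polymerase subunits and general factors had 3 lower and 1 higher of 44, with a median of 0.20. The 3 lower were Taf1d, Taf15 (-4.46 ± 0.19) and Taf4b (-1.40 ± 0.29), and the higher one was Taf6 at 1.94 ± 0.45. Taf15 and Taf4b lay below an intensity of 32 in pre-existing RNA on average, so the sizes of their changes are uncertain. Against 2F total RNA Taf15 was at -4.37 and called, and Taf4b was not tested. Taf6 read 122.6, 151 and 108 against 55.1, 15.9 and 40.1, with the lowest value on total RNA replicate 2, and was at 0.82 against 2F total RNA, short of the fold of 2.

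The Zfp genes, which encode zinc-finger proteins, formed the list with the most decreases. Of 147 tested, 19 were lower and 1 was higher, with a median of -0.38, and 16 were lower against 2F total RNA. The shares of lower genes among all tested were 3.23% and 2.27% in these 2 comparisons. Zfp568, a KRAB zinc-finger repressor, was at -2.61 ± 0.31, but its pre-existing values of 12.9, 15.4 and 21.8 lay below an intensity of 32. Zfp267 (-1.91 ± 0.20), Zfp948 (-1.84 ± 0.24) and Zfp715 (-1.73 ± 0.20) followed. Zfp715 read 84.0, 90.1 and 98.3 against 246, 312 and 356, with no overlap. Of 23 chromatin regulators and Zbtb factors 2 were lower, Zbtb11 (-1.68 ± 0.33) and Zbtb1 (-1.17 ± 0.19). Against 2F total RNA Zbtb11 was at -0.81 and not called, and Zbtb1 was at -1.05 and called.

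Hosts of small nucleolar RNAs and nuclear RNAs were lower for 5 of 14, where 3.23% of all genes were, with 0 higher and a median of -0.41. Snhg5, a host transcript, read 259, 333 and 276 against 597, 877 and 822 and was at -1.39 ± 0.22. Snhg7, another, was at -1.35 ± 0.30. Neat1, the scaffold of paraspeckles, read 453, 518 and 495 against 1376, 760 and 1046, and 1651 to 1965 in 2F total RNA. All its total RNA values were above the pre-existing ones, and the change of -1.08 ± 0.25 became -1.88 ± 0.09 against 2F total RNA. Taf1d, described above, was also among the 5. Outside this list, Mir22hg, the host transcript of miR-22, was at -1.94 ± 0.19.

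Single genes stood out in other lists. Among proteins of mRNA decay and AU-rich element binding, 2 of 36 were lower, Smg1, a kinase of nonsense-mediated decay (-1.35 ± 0.24), and Zfp36l1, an activator of decay (-1.16 ± 0.23). Smg1 read 97.3, 125 and 86.0 in pre-existing RNA, 294, 289 and 203 in total RNA and 86.6, 91.6 and 145 in 2F total RNA, where it was at -0.05 ± 0.23 and did not pass (limma adjusted p = 0.89). Its level in 2F total RNA thus overlapped the pre-existing values. Of 14 p53 targets 1 was lower, the p53 ubiquitin ligase Mdm2, at -1.15 ± 0.19 and -1.14 ± 0.11 against the 2 total RNA groups. Of 19 regulators of apoptosis 1 was lower, the death inducer Bcl2l11 (-2.93 ± 0.37), whose pre-existing values of 10.3 to 23.1 were below an intensity of 32. Bcl2l11 was not tested against 2F total RNA. Ubiquitin ligase components had 4 lower and 3 higher of 104, near the share of all genes, with Fbxo30 at -1.94 ± 0.42 and Fbxw2 at -1.34 ± 0.23 on one side and Rnf123 (2.83-fold higher) and Fbxo21 (a log2 change of 1.12 ± 0.22) on the other. Rnf123 was not called without total RNA replicate 2 (1.28, limma adjusted p = 0.064). Total RNA of Rnf123 and pre-existing RNA of Fbxw2 averaged below an intensity of 32. Against 2F total RNA Fbxo30 was called lower (-1.69), and Fbxw2 (-0.90), Rnf123 (0.72) and Fbxo21 (0.32) were not called.

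Bhlhe40, a repressor of the circadian clock, was lower (-1.48 ± 0.26) as 1 of 13 clock genes. It was also 1 of 6 genes listed as helix-loop-helix inhibitors and Notch targets. In that list Hes6, at total RNA values averaging below an intensity of 32, was higher (1.37 ± 0.31). Hes6 was not called without total RNA replicate 2 (1.15, limma adjusted p = 0.054). Against 2F total RNA Bhlhe40 was called lower (-1.77) and Hes6 was not called (0.75).

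The remaining genes of the 20 largest decreases were Hmga2, an architectural chromatin protein (-2.33 ± 0.30), Ttc14 (-2.20 ± 0.27), the scaffold protein Grasp (-2.17 ± 0.31), Mideas, a subunit of a histone deacetylase complex (-2.11 ± 0.17), the zinc exporter Slc30a1 (-1.95 ± 0.30) and Sertad4 (-1.95 ± 0.27). The 20 were chosen among called genes whose groups did not overlap. Their limma adjusted p was at most 0.013, and all kept their call without total RNA replicate 2 and with the replicate block. With any other single array left out at least 19 of the 20 were called, where Slc30a1 was lost without pre-existing replicate 1 or 3 and Grasp without total RNA replicate 3. Without replicate 3 of both groups 1 of the 20 was called. Against 2F total RNA 16 of the 20 were called. The exceptions were Hmga2 (-0.84), Rgs16 (-0.56), Grasp (-0.58) and Sertad4 (-0.59). Hmga2 read 791, 729 and 784 in pre-existing RNA, 2854, 6030 and 3359 in total RNA and 1564, 1279 and 1287 in 2F total RNA. Its 2F values lay between those of the other groups.

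Transcripts of metabolism and of large stable complexes were rarely called. Of 73 genes of oxidative phosphorylation none was called in either direction, and their median was 0.41 against 0.18 for all genes. The mitochondrial ribosome (76 genes, median 0.35), the proteasome (35 genes, 0.25), the cytosolic ribosome (42 genes, 0.16), mitosis (29 genes, -0.07) and sterol and fatty acid synthesis (20 genes, 0.29) had no call either. These counts of 0 are limma's at the fold of 2. Without total RNA replicate 2, where 2.81% of all genes were lower and 3.54% higher, limma called 1 gene of the cytosolic ribosome lower and 1 higher each in the mitochondrial ribosome, the proteasome and lipid synthesis, and over all probe sets 5226 had an unadjusted p below 0.05 in the main comparison. Glycolysis and the citrate cycle had 1 lower and 1 higher of 27, and a median of 0.47. These were hexokinase Hk2 at -1.40 ± 0.21 and phosphofructokinase Pfkp at 1.22 ± 0.18. Neither was called against 2F total RNA, where Hk2 was at -0.82 and Pfkp at 0.53. Of 38 matrix and cytoskeleton genes 1 was lower, the hyaluronan receptor Cd44. It read 1099, 1059 and 1165 against 2850, 5011 and 2653 in total RNA, but 1359, 1343 and 1446 in 2F total RNA. The change was -1.60 ± 0.27 against the former and -0.32 ± 0.07 against the latter, where it did not reach the fold of 2.

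**Figure D2:**
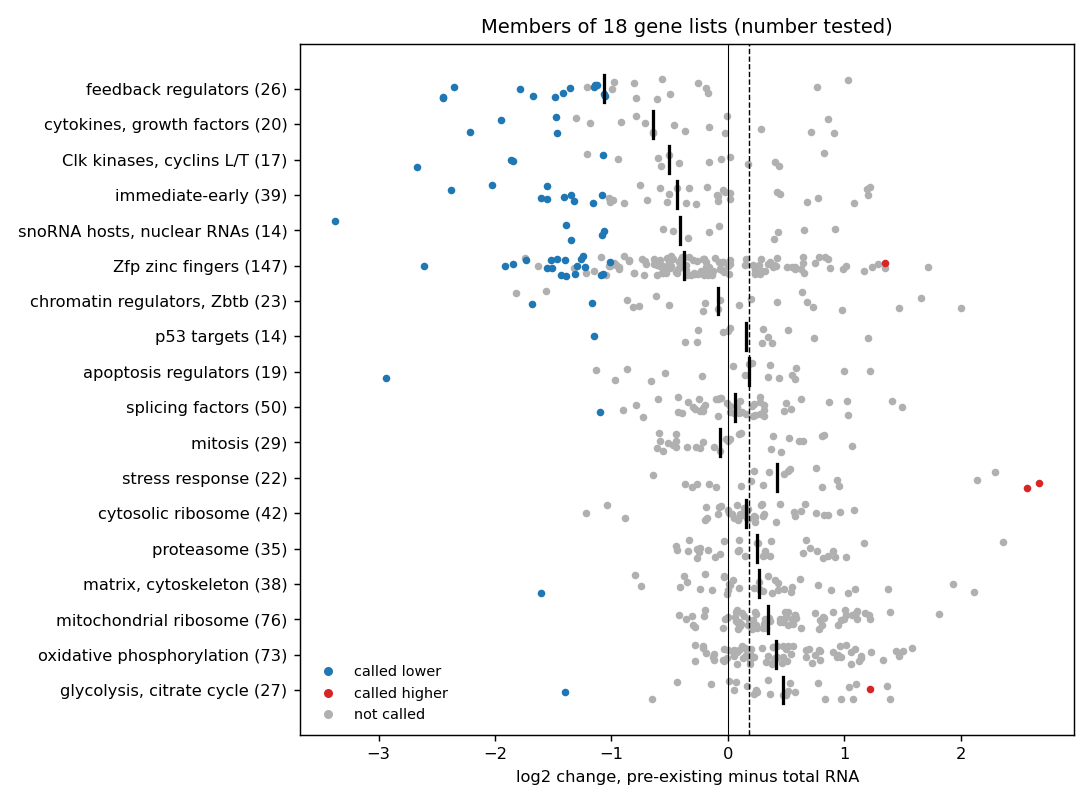
Change of each gene tested in 18 lists, as log2 of pre-existing over total RNA of the same experiment; blue points were called lower, red higher and grey not, thick bars are list medians, and the dashed line is the median of all genes tested, 0.18. The median is -1.06 for feedback regulators at the top and 0.47 for glycolysis and the citrate cycle at the bottom.

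The 417 probe sets higher in pre-existing RNA were dim, with a median log2 level of 5.34 in total RNA and 6.87 in pre-existing RNA, against 7.51 and 7.66 for all probe sets tested. The 15 largest increases were taken from those averaging an intensity of 128 or higher, and none of the 15 was called against 2F total RNA. Hp, the haemoglobin-binding protein haptoglobin, read 364, 334 and 289 in pre-existing RNA and 60.0, 52.5 and 83.4 in total RNA. The groups were far apart, at 2.35 ± 0.23 (limma adjusted p = 0.0017), but 2F total RNA read 249, 208 and 207 and the change against it was 0.57 ± 0.12. Cth, which makes cysteine from cystathionine, read 586, 488 and 538 against 129, 120 and 144, with 493, 486 and 460 in 2F total RNA. It was at 2.03 ± 0.18 and 0.16 ± 0.09 in the 2 comparisons, and its difference between the total RNA groups was -1.87 (limma adjusted p = 0.025). Pck2, the mitochondrial phosphoenolpyruvate carboxykinase, read 1749, 1931 and 1715 against 778, 212 and 363, with its lowest value on total RNA replicate 2, and 1506 to 1544 in 2F total RNA. It was 4.59-fold higher (limma adjusted p = 0.031), and its log2 change was 1.76 without that array and 0.24 ± 0.07 against 2F total RNA.

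The other large increases were Rhox5, a reproductive homeobox gene (2.07), Tmem176a (1.90), the calmodulin-dependent kinase Camk1 (1.75), the small heat shock protein Hspb6 (1.68), the ATP-gated channel P2rx3 (1.66), the protease inhibitor Serpina3n (1.61), the ceramide synthase Cers4 (1.60), the glycine transporter Slc6a9 (1.59), Comtd1 (1.56), Tomm7, a subunit of the mitochondrial import pore (1.54), the carboxypeptidase Prcp (1.53) and, at 2.83-fold, Gmppa. The 15 were chosen among called genes whose groups did not overlap. Their limma adjusted p was at most 0.046, and all were called without total RNA replicate 2. With no filter on the mean 6 of the 15 were called, and with a filter at a mean log2 of 7 or more 8 were. All 20 of the largest decreases kept their call in both of these settings. Without total RNA replicate 3 or pre-existing replicate 1 or 2, 4 of the 15 were called, 5 were without pre-existing replicate 3, and 2 were without replicate 3 of both groups. Over all genes, 0 of the 246 higher genes were called higher against 2F total RNA by limma, while 0.0236% of all genes were. For 383 of the 417 higher probe sets the sign was the same in both comparisons, which share the pre-existing arrays.

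In the integrated stress and unfolded protein response 0 of 22 genes were lower and 2 were higher, with a median of 0.42. Trib3, a pseudokinase induced by ATF4, read 272, 214 and 214 in pre-existing RNA and 58.8, 27.9 and 36.5 in total RNA. Its groups did not overlap, and the change was 2.57 ± 0.30 (limma adjusted p = 0.0036). In 2F total RNA it read 249, 236 and 227, among the pre-existing values, and the change was -0.03 ± 0.11. The total RNA groups differed by -2.60 for Trib3 (limma adjusted p = 0.031). Sdf2l1, of the endoplasmic reticulum, read 101, 99.0 and 70.8 against 23.0, 10.4 and 11.4, all below an intensity of 32 in total RNA, and was at 2.67 ± 0.34 and 0.38 ± 0.15. Against 2F total RNA the list had a median of -0.14, with 1 lower and 0 higher.

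**Figure D3:**
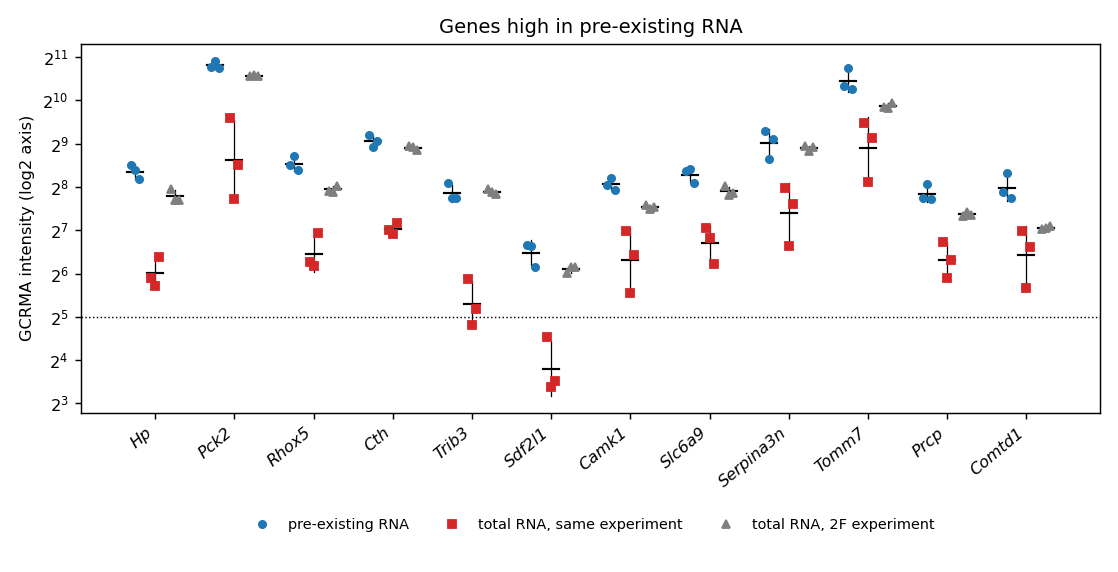
GCRMA intensity (log2 axis) of 12 genes that were higher in pre-existing RNA on each array; circles are pre-existing RNA, squares total RNA of the same experiment and triangles 2F total RNA (3 arrays each), bars are the mean and SD of the log2 values, and the dotted line is an intensity of 32. Squares lie below circles throughout, and triangles lie above all squares of each gene. Triangles lie among the circles for Trib3, at 227 to 249 against 214 to 272, and for Serpina3n, at 458 to 492 against 402.5 to 627. They partly overlap the circles for Cth and Sdf2l1.

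Probe sets of the same gene often differed. The array carries several probe sets for many genes, which can lie in different exons, introns or alternative ends, and which of these each one reads is not given in the sources used here. Of 8383 genes tested by any probe set, 3501 had several. In 298 of the 3501 at least 1 probe set was lower, in 26 of these all were, and in 1 gene both directions were called. The median range of changes within a gene was 1.57 for the 298 and 0.63 for all 3501. Lower probe sets had no single gene symbol in 24.1% of cases, against 8.21% of all tested and 6.71% of the higher ones. The mean of pre-existing RNA was below an intensity of 32 for 283 of the 701 lower probe sets, so that many of the largest changes are uncertain in size.

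The genes in this and the next paragraph were chosen after their values were seen. Rbm39, a splicing coactivator, had 9 of 12 probe sets lower, from -1.25 to -4.14, and the 3 others were between -0.59 and -1.34. The lowest probe set of Rbm39 read 31.8, 45.3 and 42.0 against 619, 723 and 737, while its brightest read 750, 662 and 760 against 1004, 1172 and 1095. Neither overlapped between groups, and the former was at -3.97 and the latter at -0.86 against 2F total RNA. Taf1d itself had 5 of 7 probe sets lower, and its smallest change was -0.65. Tnc, the matrix glycoprotein tenascin C, read 29.8, 30.6 and 37.8 against 833, 951 and 809 on one probe set, at -4.73 ± 0.19, and 448, 503 and 463 against 811, 1004 and 742 on the other, at -0.84 ± 0.19. Against 2F total RNA the former was at -4.35, and the latter at -0.54 was not called.

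Fn1, the matrix protein fibronectin, read 7731, 7363 and 7520 against 8438, 6297 and 6641 on its brightest probe set, which was at 0.09 ± 0.19, and 157, 138 and 182 against 1019, 472 and 721 on the other, which was at -2.15 ± 0.30. The dim probe set of Fn1 was at -3.05 against 2F total RNA and was higher in 2F newly transcribed RNA (1.73). Hnrnpu, a nuclear scaffold protein, had 2 of 5 probe sets lower, to -3.34, and 3 not called, up to 1.18. Malat1, a long nuclear RNA, had 1 of 7 lower (-2.72 ± 0.41), and its bright probe sets were not called. Rtn4, of the endoplasmic reticulum, ranged from -5.13 to 0.72 over 5 probe sets, and Zfp207, a spindle protein, from -5.31 to -0.35 over 4. Gas5, a small nucleolar RNA host, had 1 of 4 lower (-2.01 ± 0.22), at 298, 210 and 305 against 971, 1145 and 1132, and its brightest probe set was at 0.43 ± 0.22. For these genes a single change does not describe all their probe sets.

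**Figure D4:**
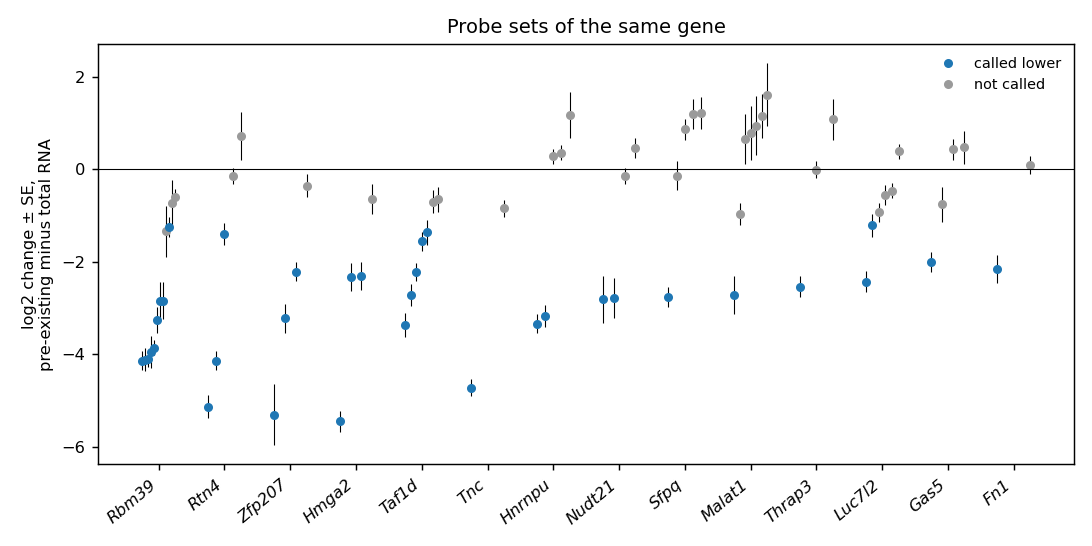
Change of every probe set tested of 14 genes, as log2 of pre-existing over total RNA of the same experiment, with bars of 1 standard error; blue points were called lower and grey points were not called. Rtn4 spans -5.13 to 0.72 and Fn1 -2.15 to 0.09, while the 12 probe sets of Rbm39 all lie below 0.

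Arrays that share no sample with this comparison gave their own readings of the same probe sets. In the 2F experiment 24.0% of all probe sets were higher in newly transcribed than in total RNA and 21.8% were lower. Of the 701 lower in pre-existing RNA 698 could be tested there, and 634 were higher in newly transcribed RNA (90.8%, against 17.4% of the 14465 tested in both) and 4 were lower. The 634 were 16.3% of the 3885 probe sets higher in that comparison. Taf1d was at 1.88, Skil at 2.19 and Tnfaip3 at 2.44 in it, and all 20 of the largest decreases were higher. Of the 417 higher in pre-existing RNA 328 could be tested, and 166 were lower in newly transcribed RNA (50.6%, against 24.2%) and 4 were higher. Those 166 were 4.70% of the 3534 probe sets lower there, and they included 12 of the 15 largest increases. In oxidative phosphorylation 64 of 71 genes were lower in newly transcribed RNA, against 22.5% of all genes.

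After 2 h of actinomycin D 9.42% of all probe sets were lower than before the drug, and after 1 h 3.58% were. Of 605 lower in pre-existing RNA and tested there, 296 were lower at 2 h (48.9%, against 9.35% of the 14365 tested in both, and 20.9% of the 1419 that were lower) and 122 at 1 h (20.2%, against 3.59%, and 22.6% of 539). Of 372 higher ones 6 were lower at 2 h (1.61%) and 4 were higher, where 0.538% of all probe sets were. At 2 h Ptger4 was at -5.60, Tiparp at -4.25, Klf10 at -3.83, Clk1 at -3.02, Taf1d at -2.64 and Skil at -1.79. By contrast Ereg, Ttc14 and Rgs16, at 0.30, 0.24 and 0.38, were not called after the drug, nor were Cxcl1 at -0.01 and Neat1 at -0.25. In all, 13 of 18 of the largest decreases tested were lower at 2 h. Trib3, which was higher in pre-existing RNA, was at -2.95 at 2 h of actinomycin D and at 1.28 in 2F newly transcribed RNA, the directions of the genes depleted from pre-existing RNA.

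Over all probe sets the change in pre-existing RNA had a Spearman correlation of -0.61 with the 2F newly transcribed enrichment (14465 probe sets), 0.40 with the change at 2 h of actinomycin D and 0.04 with that at 1 h (14365 probe sets each). These describe probe sets, which share their sequences and brightness across arrays and are not replicates.

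**Figure D5:**
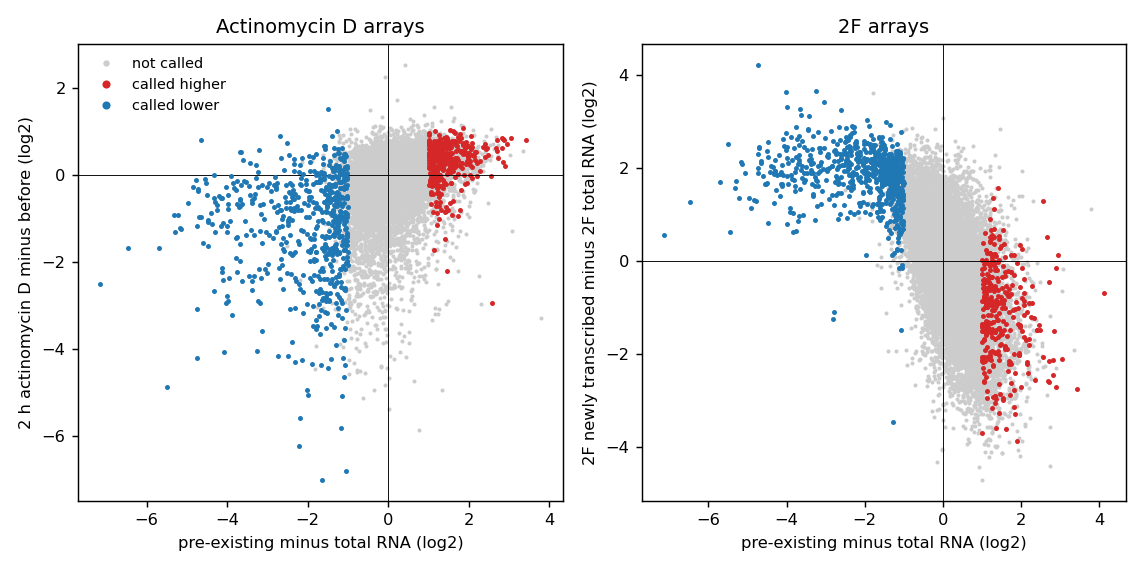
Each point is a probe set; the horizontal axis is log2 of pre-existing over total RNA, and the vertical axis is the log2 change after 2 h of actinomycin D (left) or log2 of 2F newly transcribed over 2F total RNA (right), with probe sets called lower in blue, higher in red and others in grey. Of the blue points 634 of 698 were called higher on the right and 296 of 605 called lower on the left.

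The pre-existing share of a transcript at the end of the pulse was turned into a half-life. The ratio of pre-existing to total RNA was divided by a scale of 1.19. This is where the line of that ratio on newly transcribed over total RNA meets 0 new RNA. The line was drawn over the 9047 probe sets whose log2 averaged at least 7, and followed them loosely (Pearson r = -0.22). Newly transcribed replicate 1, which entered the line, had a 3′ excess of 3.07 (log2) on the Gapdh control probes. Replicates 2 and 3 had -0.27 and -0.29. The effect on the scale was not tested. Exponential decay at constant total RNA and complete separation were assumed. The median pre-existing share was 0.864, with an SD of 0.0267 over the 3 replicates, which is a half-life of 284 min. Taf1d came to 16.6 min (95% interval 14.2 to 19.8), Ccnt2 to 20.6 min, Skil to 22.2 min (17.5 to 30.7), Klf10 to 22.8 min and Lif to 24.3 min. No half-life is given for Tnfaip3, whose pre-existing values were all below an intensity of 32. Slower members of the lower genes were Fos at 33.3 min (24.7 to 51.2), Mdm2 at 42.9 min and Neat1 at 45.2 min. At 2 h of actinomycin D, longer than these half-lives, Mdm2 was lower (-1.41) but Neat1 was not called (-0.25). Taf1d was at -2.64, Ccnt2 at -1.585, Skil at -1.79 and Klf10 at -3.83. Each half-life that passes lowers the log2 level by 1, so all of these genes fell less by 2 h than their half-lives give. Fos and Lif were not tested there. The half-lives of these genes were thus not seen in those arrays, and the reason was not tested. All half-lives rest on total RNA of the same experiment, and none is given against 2F total RNA. The intervals carry the spread of the arrays and leave out the error of the scale and the differences between probe sets of a gene. For Taf1d the half-life rests on the probe set with the largest change (-3.37) of 7 tested, and the smallest change among them was -0.65. For a share of 0.641 of the probe sets the scaled ratio was below 1, and the rest, with genes such as Hp and Cth, have no half-life on this scale. With every probe set averaging at least 5 the line gave a median of 217.3 min, and with a scale of 1 the median share was 1.03, which has no half-life. Actb came to 258 min with no finite upper bound, so slow turnover was not resolved by a pulse of this length.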

How the data were processed

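RNA was measured on Affymetrix arrays. The deposited values were intensities on a linear scale, made with GCRMA (no version given), per the submitters' processing notes. They were converted to log2 here. Control probe sets (61 of 31451) were left out. The platform annotation gave a single symbol to 25031 of the other 31390 probe sets, which stand for 13232 genes. Entrez identifiers tied 24947 of these to the RefSeq table, and 0 symbols changed. Pre-existing and total RNA (3 arrays each) were compared by limma 3.58.1 under R 4.3.3 with moderated variances (eBayes), no covariate and Benjamini-Hochberg adjustment over all probe sets tested, because an exact permutation test of 3 against 3 cannot go below p = 0.1. Other groups were fitted in pairs in the same way, and the script was first checked on simulated data. The number of arrays limits the precision, and the filter on the mean lets a group lie below an intensity of 32.

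The named genes were the 20 largest called decreases and 15 largest increases averaging 7 or more on the log2 scale (an intensity of 128), with 1 symbol and no overlap between groups, up to 4 called members of each gene list described, the genes Tnfaip3, Skil and Taf1d, and Actb, Fos and Myc as reference points. Further genes are said to be chosen after their values were seen. The members, lists and tests were chosen with earlier results of these data known. After subtracting group means, arrays of the same number correlated at 0.268, 0.404 and 0.243, each above 0.1, so the numbers were taken to pair the arrays. Arrays of different number also correlated, at 0.318 for pre-existing replicate 1 with total RNA replicate 3 and 0.229 for the reverse, so the values set replicate 2 apart and do not separate 1 from 3. The fit without the block was the main one. Alternatives were other scalings, filters, an added 16, fits with more or fewer arrays, the replicate block, and 2F total RNA.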

Additional observations from a re-analysis of the deposited data

How the results depend on the processing

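The counts of 701 lower and 417 higher probe sets moved most with the arrays and the filter. Without a filter on the mean 1697 were lower, at a mean log2 of 7 or more 227 were lower and 58 higher, with 16 added to each intensity 1296 were lower, and in a fit of 9 arrays with newly transcribed RNA 1072 were lower. Leaving out 1 array or 1 replicate number at a time gave 180 to 1118 lower and 4 to 2287 higher. The lowest counts came without replicate 3 of both groups and the highest without total RNA replicate 1. Without total RNA replicates 2 and 3, an alternative chosen after seeing the data whose lone array is assumed to vary like the pre-existing ones, 280 were lower and 202 higher. The replicate block raised the increases to 1000, and all called named genes kept their call with it. Of the 73 named genes with a value, 66 lost their call without replicate 3 of both groups, 37 without total RNA replicate 3 and 4 without total RNA replicate 2. Against 2F total RNA 9 probe sets were higher, Myc turned to -1.58 and Trib3 to -0.034. The median half-life moved from 284 to 217.3 min with a mean log2 of 5 or more in the line, and a scale of 1 gave none. The causes were not tested. Signal near background limits the size of changes wherever a group lay below an intensity of 32.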

Other observations

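Some genes were called lower in pre-existing RNA against 2F total RNA and not against total RNA of the same experiment, and those named here were chosen after their values were seen. Of the 187 genes lower in that comparison and tested in both, 62 were not called against total RNA of the same experiment. Immediate-early genes were 10 of the 62, and 39 of the 8370 genes tested in the main comparison. In the other direction, 138 genes were lower against total RNA of the same experiment and not called against 2F total RNA, and 3 of these were immediate-early genes. Thbs1, the matrix protein thrombospondin 1, read 2819, 1390 and 3022 in pre-existing RNA, 3964, 1193 and 2557 in total RNA and 8061, 7704 and 7373 in 2F total RNA. Its change was -0.01 ± 0.50 against the former and -1.76 ± 0.29 against the latter. Klf6, a zinc-finger factor, was at -1.01 ± 0.31 and -1.77 ± 0.19, and Dusp5, a MAP kinase phosphatase, at -0.98 and -1.57. Without total RNA replicate 2 both were also called lower against total RNA of the same experiment, at -1.29 (limma adjusted p = 0.029) for Klf6 and -1.30 (limma adjusted p = 0.041) for Dusp5, and Klf6 was called with the replicate block (-1.01, limma adjusted p = 0.049). Plk2, a polo-like kinase, read 443, 448 and 555 against 706, 165 and 911, and 1190 to 1294 in 2F total RNA. Btg2, an antiproliferative factor, read 882, 13.7 and 415 in total RNA of the same experiment, where replicate 2 was far below the others. The difference between the total RNA groups passed for the receptor kinase Epha2 (-1.54, limma adjusted p = 0.035) and not for Thbs1 (adjusted p = 0.1), Klf6 (0.17), Dusp5 (0.29), Plk2 (0.2) or Btg2 (0.25).

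Some of the largest decreases of all lay in probe sets with little signal left in pre-existing RNA. A probe set of Pabpc1, the cytoplasmic poly(A)-binding protein, read 10.3, 10.5 and 14.8 in pre-existing RNA, 524, 556 and 498 in total RNA and 101, 104 and 91.8 in 2F total RNA. It was at -5.49 ± 0.21 and -3.08 ± 0.15 in the 2 comparisons, and the difference between the total RNA groups was 2.41 (limma adjusted p = 0.021). It was at 2.51 in 2F newly transcribed RNA and -4.89 at 2 h of actinomycin D. A probe set of Cald1, the actin-binding protein caldesmon, read 7.21, 7.14 and 8.19 against 415, 257 and 205, at -5.22 ± 0.28, and was at -5.45 ± 0.14 against 2F total RNA. At 2 h of actinomycin D it was at -0.91 and short of the fold of 2. Both were chosen after their values were seen.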
